A study of Mus musculus with 6 samples.

Results

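The 10 transcripts described here encode receptor chains for itch-related cytokines: Il31ra, Osmr, Il6st, Il4ra, Il13ra1, Il2rg, Crlf2, Il17ra, Il1r1 and Il1rl1. They were chosen by gene symbol, and all 10 were found among the 55809 gene symbols that were counted. RNA came from dorsal root ganglia (DRG), the clusters of sensory neuron cell bodies beside the spinal cord, of C57BL6J offspring aged 8 weeks. There were 3 control pools, from dams left undisturbed, and 3 prenatal stress pools, from dams restrained in tubes under a bright light for 30 min at a time, 3 times a day, in late gestation (embryonic days 13 to 18 in the protocol, while the series design gives slightly different days). No pool carried an engineered allele or received a drug, each pool joined 3 mice, and litters are not given, so p-values measure the spread between pools.

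Cytokine receptors of this kind work as pairs or triplets of chains. Il31ra joins Osmr to bind IL-31, a T cell cytokine known for provoking itch, and Osmr joins Il6st (gp130) to bind oncostatin M. Il4ra pairs with Il2rg, the common gamma chain, for IL-4, or with Il13ra1 for IL-4 and IL-13, while Crlf2 pairs with Il7r for the epithelial cytokine TSLP. Il17ra is the shared chain for IL-17 cytokines, and Il1r1 and Il1rl1 (ST2) bind IL-1 and IL-33 together with Il1rap. In mouse ganglia, Il31ra and Osmr are known as features of a small class of itch neurons, the NP3 class, which also makes Nppb, Sst and Nts.

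The pools held 51.7 to 87.4 M gene counts. Control pool 3 stood apart by a summed level of 2050 CPM (counts scaled to each library's total with TMM factors) for 5 skeletal muscle markers, against 12.5 to 39.7 CPM elsewhere. Summed levels of 7 neutrophil and marrow markers ran from 42.9 CPM in stress pool 1 to 395 CPM in stress pool 3, and those of 6 central nervous system markers were highest in stress pool 2 (213 CPM) and control pool 2 (154 CPM). The 8 sensory neuron markers include Isl1, Pou4f1, Prph, Avil and Tubb3. They summed to 6096 to 6451 CPM in control and 6126 to 6238 CPM in stress pools. Defining markers of the labelled tissue were thus present in every pool. Tubb3 alone gave 1832 to 2250 CPM of each sum and was lower in stress pools (log2 fold change -0.18 ± 0.05 SE, edgeR adjusted p = 0.297). It was the only 1 of the 8 whose groups did not overlap, against 18.1% of all genes. Of the 8, 6 had positive and 2 negative log2 fold changes. The labels say that both sexes were used, while Xist had 9 to 19 counts (0.130 to 0.232 CPM) and the Y-linked Ddx3y 77.3 to 80.9 CPM in every pool. Xist this low beside Ddx3y points to male RNA in all 6 pools. In such bulk samples, fewer cells of a type and less RNA per cell cannot be told apart.

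The 10 chains spanned a wide range of levels. Per kilobase of the longest transcript, Il6st, the signal-transducing chain shared by the IL-6 family, was highest at 66.9 ± 5.10 CPM per kb (SD over 6 pools). Il31ra followed at 13.8 ± 1.43, Osmr at 10.6 ± 0.764 and Il4ra at 10.4 ± 0.999 CPM per kb. Il13ra1 stood at 3.64 ± 0.364, Crlf2 at 3.40 ± 0.637 and Il1r1 at 2.24 ± 0.183 CPM per kb. The lowest were Il17ra at 0.950 ± 0.113, Il2rg at 0.437 ± 0.0784 and Il1rl1 at 0.187 ± 0.0461 CPM per kb. Of the 9 neighbouring steps in this order, Osmr to Il4ra and Il13ra1 to Crlf2 could not be ordered, since their ranges overlapped and each order held in 3 of 6 pools. The Il31ra to Osmr step was small (ratio of means 1.31), and its ranges did not overlap. With the mean length of all annotated transcripts in place of the longest, Il4ra moved from the fourth to the second place (23.7 CPM per kb, with Il31ra at 21.3 and Osmr at 18.3) and Crlf2 passed Il13ra1 (4.05 and 3.64 CPM per kb), so the order among close neighbours depends on the transcript taken.

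**Figure D1:**
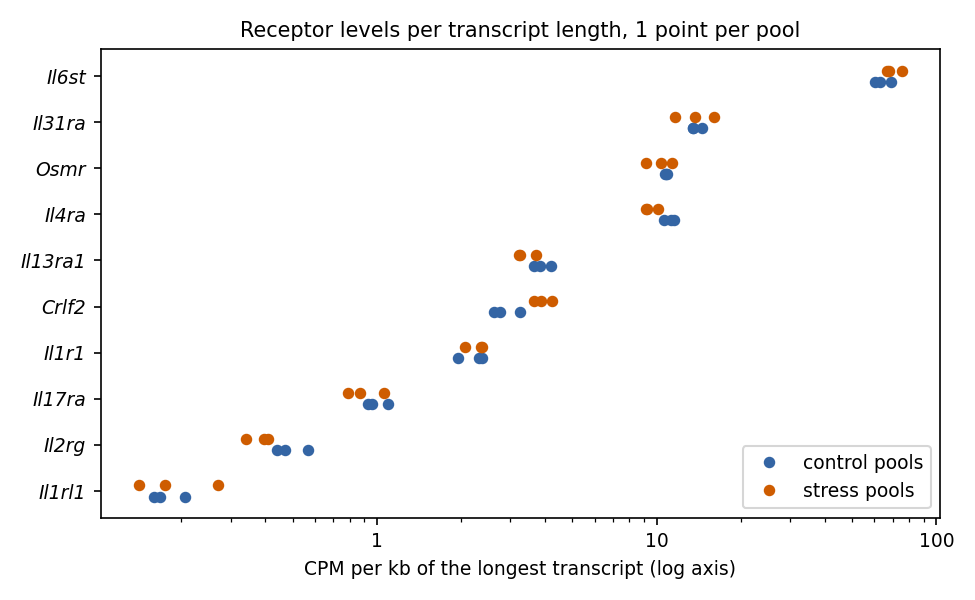
Level of each receptor transcript in CPM per kb of its longest transcript, on a log axis, with 1 point per pool (blue, control; orange, prenatal stress). Il6st lies between 60.6 and 75.2 CPM per kb in all pools and Il1rl1 between 0.141 and 0.270 CPM per kb.

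The 2 chains of the IL-31 receptor had similar profiles over the pools, and neither passed the test between groups. Il31ra, the ligand-binding chain, stood at 49.7, 49.6 and 53.6 CPM in control pools 1 to 3 and at 50.5, 43.0 and 59.0 CPM in stress pools 1 to 3. The stress pools held both the lowest and the highest value, and the groups overlapped. The means were 50.9 ± 2.28 and 50.8 ± 8.03 CPM (SD, n = 3 pools each), with a log2 fold change of -0.00 ± 0.10 SE, a 95% interval of -0.25 to 0.24 and an edgeR adjusted p of 0.995. Osmr stood at 58.8, 59.9 and 59.2 CPM in control and at 57.1, 50.2 and 62.6 CPM in stress pools. Its control pools lay close together, and stress pools 2 and 3 were again lowest and highest. Its log2 fold change was -0.07 ± 0.07 SE (interval -0.24 to 0.10, edgeR adjusted p = 0.786).

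Within a pool, the ratio of Il31ra to Osmr, each per kilobase, varied less than either chain. It was 1.26, 1.23 and 1.35 in control and 1.32, 1.28 and 1.41 in stress pools. On the log2 scale its SD over 6 pools was 0.070, against 0.150 for Il31ra and 0.109 for Osmr. The ratio differed by 0.06 on the log2 scale between groups (two-sided exact permutation p = 0.40, adjusted p = 0.80 over 8 ratios, smallest p possible 0.10). Within replicate numbers it was higher in stress pools in 3 of 3 pairs (0.067, 0.049 and 0.061 on the log2 scale), where a two-sided exact sign-flip test gave p = 0.25, the smallest possible with 3 pairs. Among 55 pruriceptor, receptor and pathway genes, Osmr had the profile nearest to that of Il31ra, with a mean absolute log2 difference of 0.056 over 6 pools against a median of 0.120 for all candidates. The adaptor Myd88 (0.065) and the itch receptor Mrgpra3 (0.076) came next. The genes nearest to Osmr were Myd88 (0.046), the leukotriene receptor Cysltr2 (0.054) and Il31ra (0.056). Stress pools 2 and 3 were also lowest and highest for Mrgpra3, Cysltr2, the channel gene Trpc6 and the general nociceptor marker Scn9a. This shape was thus shared with some other sensory neuron genes, but not with all. Sst was highest in stress pool 2, and Nts was highest in a control pool. Other genes shared only an end of the shape. Nppb was lowest in stress pool 2 but highest in a control pool, and Htr1f and Scn10a were highest in stress pool 3 but lowest in a control pool. The profile distances are descriptions with no test, and genes of small spread lie near one another on this measure.

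The 8 NP3 markers summed to 516 to 525 CPM in control and 521 to 546 CPM in stress pools, but Jak1, a kinase on that list, gave 428 to 469 CPM of each sum. Without Jak1 the sums were 80.8 to 88.2 CPM in control and 71.7 to 76.8 CPM in stress pools, lower in stress pools without overlap. Without Jak1 and Nts they were 61.0 to 61.4 and 60.4 to 67.9 CPM and overlapped. Nts, a peptide of the same neuron class and the 1 marker of this list that passed the edgeR test, was lower in stress pools (23.0 ± 3.65 and 9.87 ± 1.22 CPM, log2 fold change -1.22 ± 0.13 SE, edgeR adjusted p = 0.0297). That call was lost when control pool 2, control pool 3 or any 1 stress pool was left out (adjusted p up to 0.174). None of the other 7 NP3 markers passed, and their log2 fold changes ran from -0.15 ± 0.11 SE for Nppb to 0.32 ± 0.14 SE for the serotonin receptor Htr1f, with Sst at 0.28 ± 0.20 SE and Cysltr2 at 0.02 ± 0.08 SE. In the annotation, exons of Il31ra overlap a processed pseudogene on the same strand, Gm3226, which had 205 to 337 counts a pool, so some reads of the shared stretch could be missing from the Il31ra count.

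The start regions of Il31ra and Osmr differ in base composition. The 250 bases before each RefSeq start site are shown 5′ to 3′ on the gene's own strand, with CpG dinucleotides in capitals, for Il31ra (GRCm38.p6, chr13:112580663-112580912, minus strand) and Osmr (GRCm38.p6, chr15:6874314-6874563, minus strand).
Il31ra: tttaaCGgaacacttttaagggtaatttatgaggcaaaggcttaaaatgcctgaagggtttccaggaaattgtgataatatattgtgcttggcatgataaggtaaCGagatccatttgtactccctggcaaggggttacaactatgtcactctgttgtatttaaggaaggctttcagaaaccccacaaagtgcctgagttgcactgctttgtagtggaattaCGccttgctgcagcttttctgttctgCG
Osmr: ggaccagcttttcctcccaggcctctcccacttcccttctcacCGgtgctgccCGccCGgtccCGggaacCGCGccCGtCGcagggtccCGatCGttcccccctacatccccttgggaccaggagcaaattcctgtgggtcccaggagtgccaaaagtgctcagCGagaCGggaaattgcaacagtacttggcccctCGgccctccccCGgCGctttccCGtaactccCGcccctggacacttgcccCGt
The Il31ra stretch holds 4 CpG and the Osmr stretch 18. Over the full RefSeq window of 300 bases (250 before and 50 after the start), Il31ra has 6 and Osmr 22 CpG, against a median of 7 in all 32851 windows. Of the 9 members with a window, Il4ra (25), Il13ra1 (28), Crlf2 (31) and Il6st (33) are also CpG-rich, while Il2rg has 3. Il1r1 (5 and 14) and Il1rl1 (1 and 3) each have 2 windows. The STAT motif TTCNNNGAA, which reads the same on both strands, was found once in the 11 windows of the members, in that of Il31ra with its first base at position -191 from the start, and in 8.3% of all windows. The STAT6 motif TTCNNNNGAA was found in 0 of the 11 and in 6.95% of all windows. A match describes letters in the window and does not show binding.

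Il6st averaged higher in stress pools but did not pass the test. It stood at 526, 599 and 545 CPM in control and at 585, 578 and 652 CPM in stress pools, and control pool 2 overlapped the stress range. The log2 fold change was 0.12 ± 0.06 SE (interval -0.03 to 0.27, edgeR adjusted p = 0.534), which became 0.06 without stress pool 3, 0.08 without control pool 1 and 0.05 with the GC and length correction. Set against it, Osmr made up a lower share: the ratio of Osmr to Il6st per kilobase was 0.177, 0.158 and 0.172 in control and 0.154, 0.137 and 0.152 in stress pools. All 3 stress pools lay below all 3 control pools (log2 difference -0.19, two-sided exact permutation p = 0.10, the smallest possible, adjusted p = 0.80 over 8 ratios). Within replicate numbers the differences were -0.20, -0.20 and -0.18 (exact sign-flip p = 0.25, the smallest possible with 3 pairs). Lifr, the chain that pairs with Il6st for leukaemia inhibitory factor and is the next gene to Osmr, stood at 539 ± 28.3 and 537 ± 11.9 CPM (log2 fold change -0.01 ± 0.04 SE, edgeR adjusted p = 0.977).

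**Figure D2:**
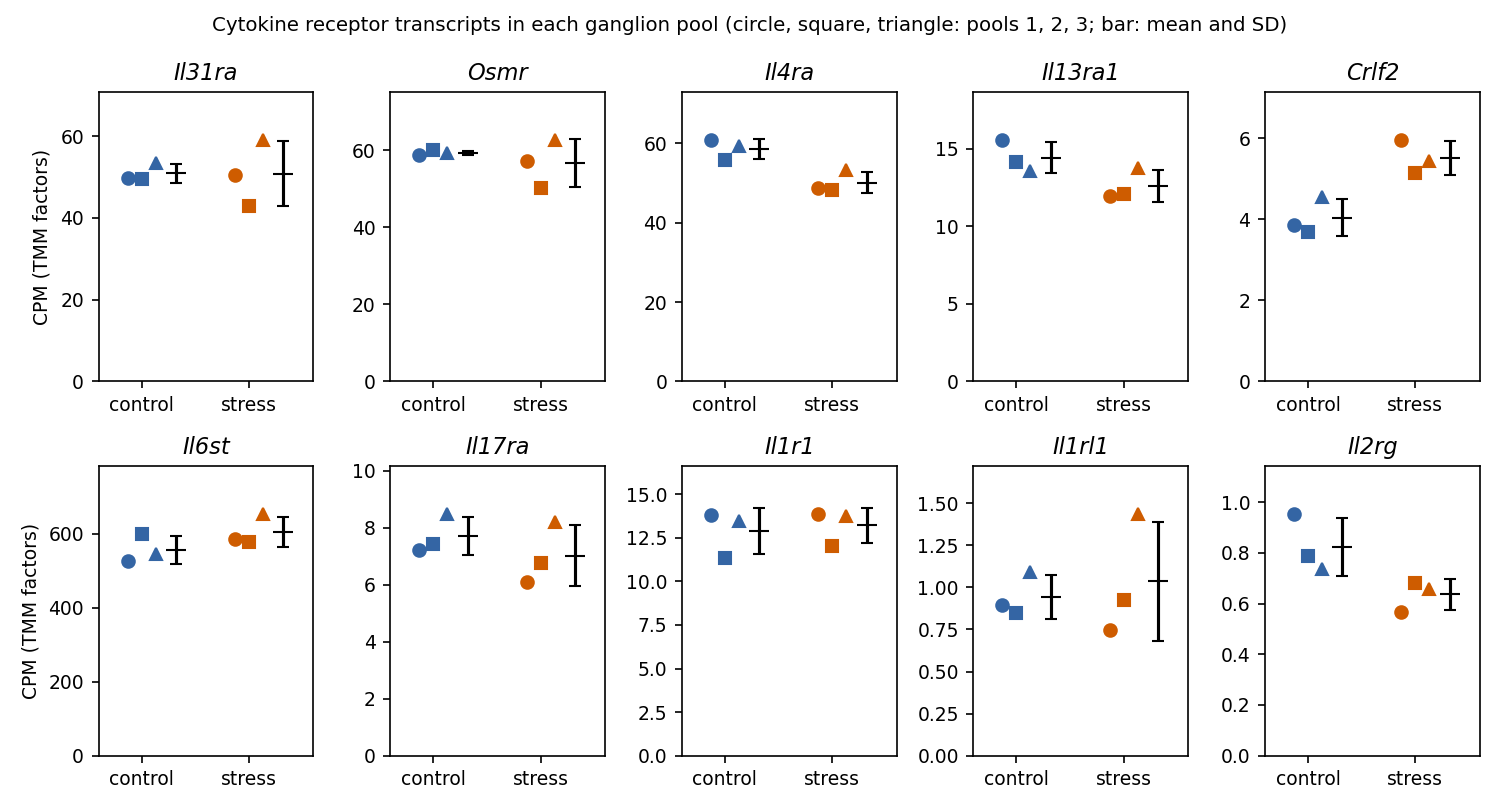
Level of each receptor transcript in CPM with TMM factors, by group, on axes that start at 0. Points are pools, and bars give the mean and SD of 3 pools. Il4ra and Il2rg are lower and Crlf2 higher in all 3 stress pools, and the other 7 genes overlap.

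The chains of the IL-4 and IL-13 receptors averaged lower in stress pools, by amounts that did not pass the test over all genes. Il4ra, the chain common to both receptor types, stood at 60.8, 55.9 and 59.4 CPM in control and at 48.8, 48.4 and 53.3 CPM in stress pools. Every stress pool was below every control pool. The means were 58.7 ± 2.52 and 50.1 ± 2.75 CPM (SD, n = 3 each), a log2 fold change of -0.23 ± 0.05 SE with a 95% interval of -0.35 to -0.11 and an edgeR p of 0.00256 before and 0.262 after adjustment. The DESeq2 Wald test, which called 2.2% of the 15004 genes it adjusted, did call Il4ra lower (-0.23, adjusted p = 0.0125). Over the 13 alternatives its adjusted p ranged from 0.0125 to 0.597 and its log2 fold change from -0.28 to -0.20.

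Il13ra1, the chain that completes the type II receptor, stood at 15.6, 14.2 and 13.6 CPM in control and at 11.9, 12.1 and 13.8 CPM in stress pools. Stress pool 3 lay within the control range, while the other stress pools lay below it. The log2 fold change was -0.20 ± 0.08 SE (interval -0.38 to -0.01, edgeR adjusted p = 0.443). The ratio of Il4ra to Il13ra1 per kilobase was 2.88 ± 0.185 in control and 2.81 ± 0.0768 in stress pools (n = 3 each, two-sided exact permutation p = 0.80, adjusted p = 0.90 over 8 ratios), and the groups overlapped. Like the ratio of Il31ra to Osmr, this ratio varied less than either of its chains. On the log2 scale its SD over 6 pools was 0.065, against 0.140 for Il4ra and 0.144 for Il13ra1.

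Il2rg, the gamma chain of the type I receptor, is a lymphocyte and myeloid chain, and had 34 to 66 counts a pool. It stood at 0.951, 0.786 and 0.734 CPM in control and at 0.568, 0.683 and 0.658 CPM in stress pools. The groups did not overlap, but the 95% exact Poisson interval of the highest stress pool (0.498 to 0.913 CPM, counting error only) covers the control values of pools 2 and 3. The log2 fold change was -0.37 ± 0.18 SE (interval -0.79 to 0.05, edgeR adjusted p = 0.491). The annotated gene Gm20489 matches Il2rg over 730 bases with no mismatch, so reads from the shared exons could be missing from its count. Per kilobase, Il4ra exceeded Il2rg by a factor of 22.9 ± 2.71 in control and 25.2 ± 2.43 in stress pools (n = 3 each).

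Markers of other ganglion cells were read beside these genes. The 6 satellite glia markers, of cells that wrap sensory neurons, summed to 2510 to 2695 CPM in control and to 2238 to 2354 CPM in stress pools, with all 6 at negative log2 fold changes and 0 called by edgeR. An unadjusted p under 0.05 was found for 3 of them (5.11% of all genes were lower at that level), Fabp7, Apoe and Ednrb, and DESeq2 called these 3. Apoe alone gave 1386 to 1690 CPM of each sum. Control pool 2 had the highest sum and the lowest control Il4ra, and stress pool 3 the lowest sum and the highest stress Il4ra. The part of satellite glia in the lower Il4ra values was not tested. The 6 Schwann cell markers were also all at negative log2 fold changes, with 0 called by edgeR. Their sums overlapped, at 6914 to 8029 CPM in control and 6027 to 7959 CPM in stress pools, and their part was not tested either. The 10 lymphocyte markers summed to 3.86 to 5.45 CPM in control and 2.66 to 8.27 CPM in stress pools and overlapped. Il2rg and the lymphocyte sum were both lowest in stress pool 1, but Il2rg was not highest in stress pool 3, where the lymphocyte sum was. Macrophage markers (8 genes, 125 to 147 and 99.7 to 163 CPM) were also lowest in stress pool 1. None of these marker genes was at 0 counts over all pools, and their part in Il2rg was not tested.

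**Figure D3:**
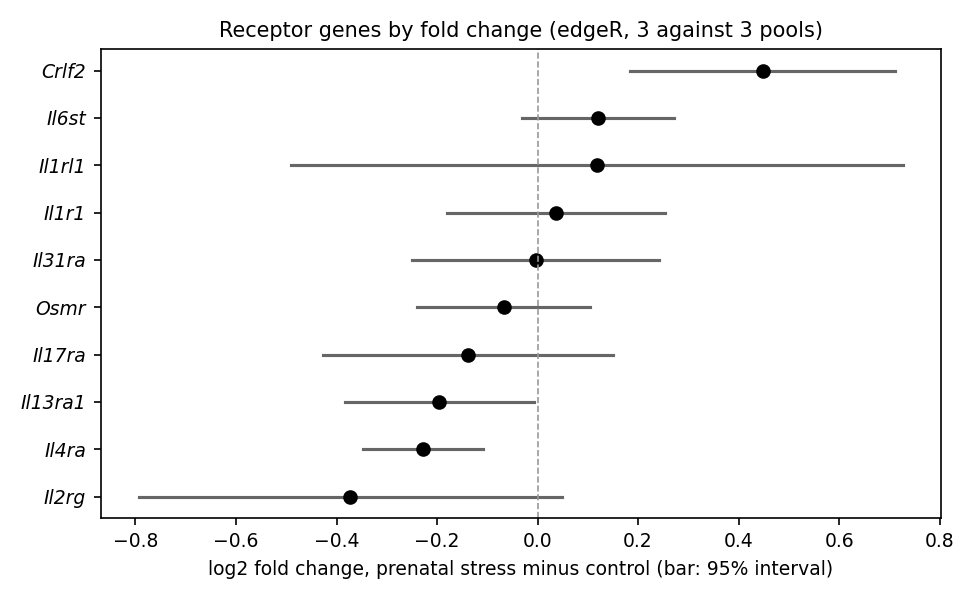
Log2 fold change of each receptor gene, prenatal stress minus control, with its 95% interval from the edgeR fit of 3 against 3 pools. The intervals of Crlf2, Il4ra and Il13ra1 do not include 0, but no gene passed after adjustment over all genes tested (smallest adjusted p 0.262, Il4ra).

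Crlf2, the TSLP-binding chain, had the highest log2 fold change of the 10. It stood at 3.86, 3.70 and 4.56 CPM in control and at 5.95, 5.14 and 5.44 CPM in stress pools. All stress pools lay above all control pools. The means were 4.04 ± 0.455 and 5.51 ± 0.409 CPM (SD, n = 3 each), a log2 fold change of 0.45 ± 0.11 SE with an interval of 0.18 to 0.71 and an edgeR p of 0.00489 before and 0.290 after adjustment. Its adjusted p stayed above the threshold in each of the 13 alternatives (0.0685 to 0.634), and its log2 fold change ranged from 0.36, with a correction for GC content and length, to 0.54, without control pool 3. The Crlf2 transcript is GC-rich, at 65.6% of its bases.

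Il7r, the partner of Crlf2, was scarce and uneven. It had 28, 36 and 68 counts in control and 6, 38 and 45 counts in stress pools. The ratio of Crlf2 to Il7r per kilobase was 24.1, 16.8 and 14.7 in control and 194, 22.5 and 15.7 in stress pools, and the groups overlapped (two-sided exact permutation p = 0.60). The high ratio belongs to stress pool 1, which had 6 Il7r counts and the lowest lymphocyte sum. The log2 difference of the ratio was 1.17 with that pool and 0.05 without it.

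Il17ra, the shared signalling chain for IL-17A and its relatives, stood at 7.24, 7.44 and 8.47 CPM in control and at 6.11, 6.77 and 8.19 CPM in stress pools. Stress pools 1 and 2 lay below every control pool, and stress pool 3 lay within the control range (log2 fold change -0.14 ± 0.12 SE, interval -0.43 to 0.15, edgeR adjusted p = 0.719). The value was -0.27 without stress pool 3, -0.05 without stress pool 1, -0.07 without control pool 3 and -0.23 with quality weights. Its partner Il17rc stood at 7.40 ± 0.697 and 7.63 ± 0.580 CPM, and the per-kilobase ratio of Il17ra to Il17rc was 0.312 ± 0.0472 and 0.275 ± 0.0548 (n = 3 each, two-sided exact permutation p = 0.30). For both groups, Il17ra was thus below Il17rc per kilobase.

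In the IL-1 family, Il1r1, the IL-1 receptor, stood at 13.8, 11.4 and 13.5 CPM in control and at 13.8, 12.1 and 13.8 CPM in stress pools. The second pool was lowest in each group, and the groups overlapped (log2 fold change 0.04 ± 0.09 SE, interval -0.18 to 0.25, edgeR adjusted p = 0.918). Il1rl1, the IL-33 receptor of mast cells and type 2 lymphocytes, stood at 0.894, 0.847 and 1.09 CPM in control and at 0.749, 0.925 and 1.43 CPM in stress pools, from 55 to 95 counts. Stress pools again held the lowest and the highest value (log2 fold change 0.12 ± 0.26 SE, interval -0.49 to 0.73, edgeR adjusted p = 0.908). Without stress pool 3 the log2 fold change was -0.18. The neutrophil and marrow, lymphocyte and macrophage sums all had the same lowest and highest pools, stress pools 1 and 3. The part of these cells in Il1rl1 was not tested.

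The shared accessory chain Il1rap stood at 16.9 ± 2.06 and 16.9 ± 0.736 CPM. Per kilobase, Il1r1 stood at 0.601 ± 0.120 and 0.608 ± 0.0673 of Il1rap, and Il1rl1 at 0.0487 ± 0.0132 and 0.0527 ± 0.0203 (n = 3 each). The exact permutation p-values of these ratios were 0.90 and 0.80. Mast cell markers, which could carry Il1rl1, had similar sums in control (99.6 to 103 CPM) and stress pools (101 to 104 CPM), of which Kit, which sensory neurons also express, gave 91.7 to 95.5 CPM. Cpa3, a protease of mast cell granules, was at 1.67 ± 0.112 CPM in control and 1.36 ± 0.111 CPM in stress pools, without overlap (log2 fold change -0.30 ± 0.14 SE, edgeR adjusted p = 0.471). It was the only 1 of the 7 mast cell markers tested whose groups did not overlap, against 18.1% of all genes. Of these 7 markers, 2 had positive and 5 negative log2 fold changes, and 0 passed the edgeR test.

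Over the whole group, 0 of 10 receptor genes passed edgeR's quasi-likelihood test at an adjusted p of 0.05, where 0.129% of the 20146 genes tested did. At an unadjusted p under 0.05 there were 3 (Il4ra and Il13ra1 lower, Crlf2 higher), against 11.1% of all genes (5.11% lower and 6.01% higher). The groups did not overlap for 3 (Il4ra and Il2rg lower, Crlf2 higher), against 18.1% of all genes (8.76% lower and 9.33% higher), and DESeq2 called 1. All 10 passed the low-count filter. Their median log2 fold change was -0.04, with 4 positive and 6 negative, and that of all genes tested was 0.01.

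**Figure D4:**
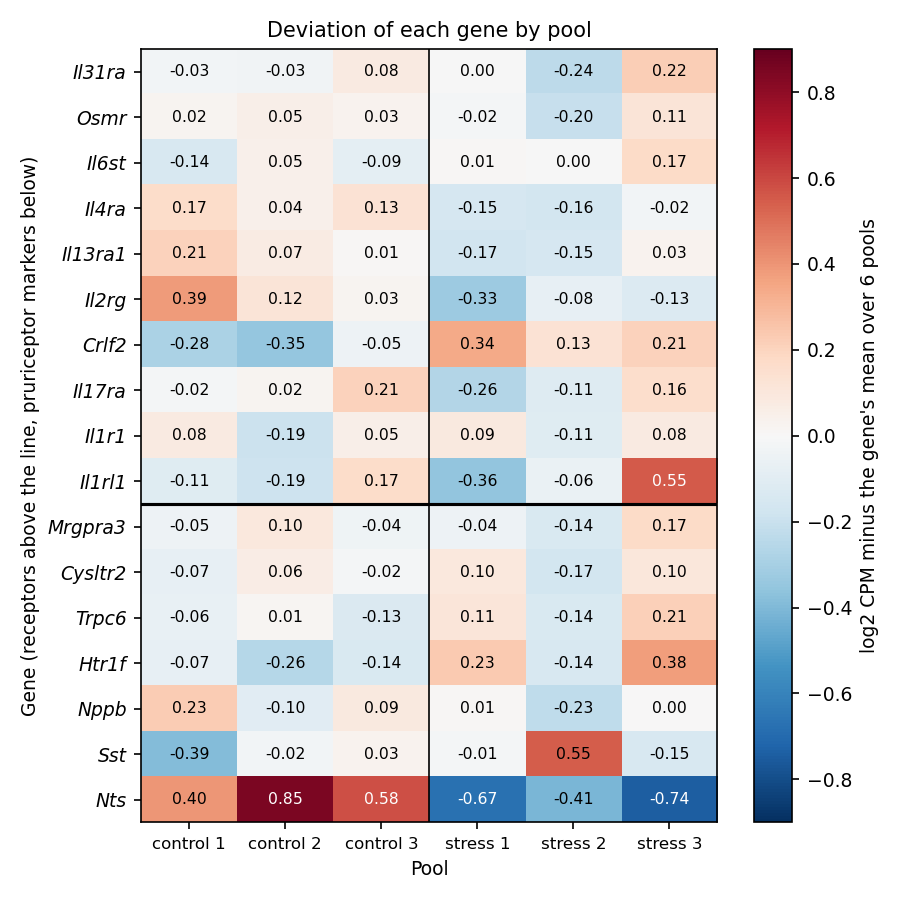
Deviation of log2 CPM from each gene's mean over 6 pools, for the receptor genes (above the line) and pruriceptor markers (below), by pool. Il31ra and Osmr are both lowest in stress pool 2 (-0.24 and -0.20) and highest in stress pool 3 (0.22 and 0.11). Mrgpra3, Cysltr2 and Trpc6 have the same lowest and highest pools. Sst is highest in stress pool 2 (0.55), and Nts is below its mean in all stress pools.

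Several ligands of these receptors were at or near the counting floor. Of 20 ligand and antagonist genes, 7 did not pass the low-count filter. Il31 had 1 count and Il13 1 count over all 6 pools, Il17a had 0, and Il4 had 1 to 11 counts a pool. Il31, Il13, Il17a, Il17c and Il17f were at 3 counts or fewer in every pool, so differences in them were not detectable at this depth. Il33, the alarmin that binds Il1rl1, was detected in every pool at 11.2 to 14.6 CPM (log2 fold change 0.00 ± 0.11 SE), and Tslp had 7 to 17 counts a pool.

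Of the 13 ligand genes tested, 0 passed the edgeR test, 4 had positive and 9 negative log2 fold changes, and the median was -0.20. At an unadjusted edgeR p under 0.05 there was 1, against 11.1% of all genes. The groups did not overlap for 2, against 18.1% of all genes. Il6, the founding gp130 cytokine, stood at 0.850, 0.555 and 0.516 CPM in control and at 0.387, 0.319 and 0.310 CPM in stress pools. All stress pools were below all control pools, at 16 to 59 counts a pool (log2 fold change -0.90 ± 0.26 SE, edgeR adjusted p = 0.327). Il25, an IL-17 family member, stood at 0.876 ± 0.0754 and 0.688 ± 0.0452 CPM, also without overlap (-0.34 ± 0.16 SE, edgeR adjusted p = 0.476). Ctf1, cardiotrophin, stood at 0.20 ± 0.16 SE.

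Of 19 partner and related chains, 0 passed the edgeR test, and the median log2 fold change was -0.01. At an unadjusted edgeR p under 0.05 there were 2, both higher, against 11.1% of all genes (6.01% higher). Groups without overlap were found for 2, both higher, against 18.1% of all genes (9.33% higher). Il17rb, the chain that pairs with Il17ra for IL-25, stood at 3.24, 3.19 and 3.90 CPM in control and at 4.31, 4.34 and 4.28 CPM in stress pools. The groups did not overlap (log2 fold change 0.32 ± 0.11 SE, edgeR adjusted p = 0.378). Il17rd, another chain of that family, stood at 10.9 ± 0.554 and 12.7 ± 1.32 CPM (0.22 ± 0.09 SE, edgeR adjusted p = 0.434). Il18r1, an IL-18 receptor chain, stood at -0.44 ± 0.28 SE from 12 to 35 counts a pool.

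Of 22 signal transducers and feedback genes, 0 passed the edgeR test, and the median was -0.01. At an unadjusted edgeR p under 0.05 there were 4 (2 higher and 2 lower), against 11.1% of all genes. Groups without overlap were found for 8 (3 higher and 5 lower), against 18.1% of all genes. Traf3ip2, the adaptor Act1 of IL-17 receptors, stood at 9.81, 9.30 and 9.21 CPM in control and at 8.65, 7.60 and 7.26 CPM in stress pools, with no overlap (log2 fold change -0.27 ± 0.08 SE, edgeR adjusted p = 0.364). Socs7, a suppressor of cytokine signalling, stood at 118 ± 5.50 and 129 ± 3.96 CPM (0.14 ± 0.04 SE, edgeR adjusted p = 0.366). The kinase Jak1, used by nearly every receptor here except the IL-1 and IL-17 families, stood at 437 ± 8.40 and 456 ± 11.4 CPM (0.06 ± 0.03 SE, edgeR adjusted p = 0.526).

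**Figure D5:**
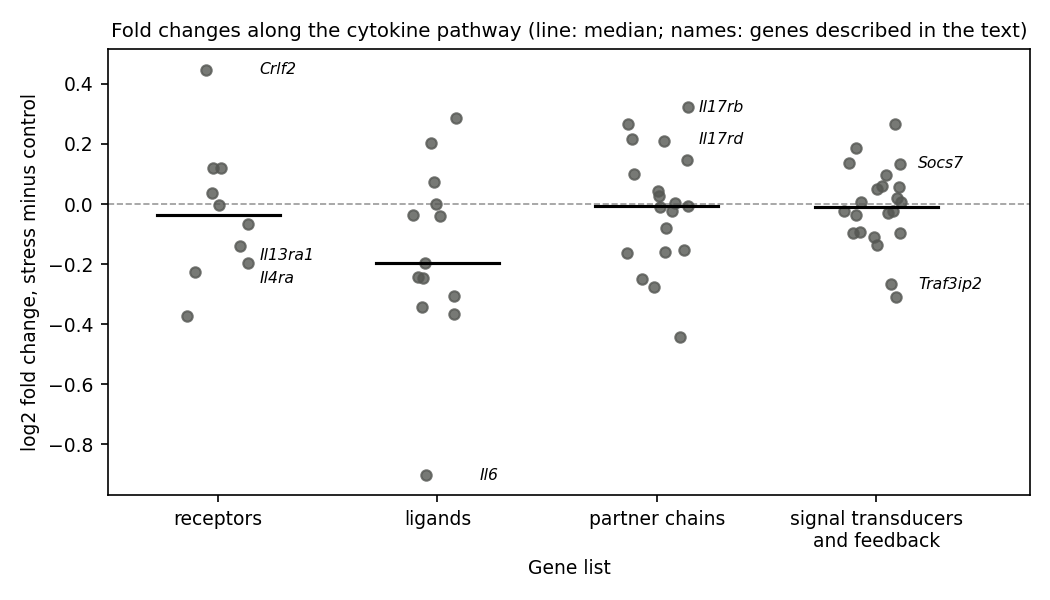
Log2 fold change, prenatal stress minus control, of every tested gene in 4 lists, with 1 point per gene, a line at each list's median, and names for the genes described in the text with an unadjusted edgeR p under 0.05. The medians are -0.04 (receptors), -0.20 (ligands), -0.01 (partner chains) and -0.01 (signal transducers and feedback).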

How the data were processed

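Libraries were poly-A selected and stranded, 1 per pool, per the labels' protocols. The authors deposited raw read counts per gene symbol, and FastQC, STAR 2.4, HTSeq 0.9.1 and the builds GRCm39 and mm10 are named in the submitters' processing notes. The counter's strand setting is not given in the sources used here. Rows that name no gene (15.3% to 16.2% of each file) were left out. Genes were fitted with edgeR 4.0.16 (R 4.3.3): TMM factors, filterByExpr with a minimum count of 10, and the quasi-likelihood F test with Benjamini-Hochberg adjustment over 20146 genes (threshold 0.05). Each SE was taken as the absolute log2 fold change over the root of F. Gene levels were expressed as CPM after TMM scaling. Lengths come from GENCODE M21, which was also searched for overlaps and matches (minimap2 2.31-r1302, at least 200 bases at 90% identity). Alternatives were RLE factors, no filter, DESeq2 1.42.0, limma 3.58.1 voom with quality weights, a robust spread, a replicate block, a GC and length correction (95.2% of tested genes had both) and leaving out each pool. The fits were tested on simulated data.

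Members, lists and tests were chosen with earlier results of these data known. Named genes were all members, up to 3 of smallest p in each pathway list, partner chains in a ratio, cell markers given beside a member and the 3 nearest profiles. A gene that this rule names is not reported here. Il33, Tslp, Il31, Il13, Il4, Il17a, Il17c, Il17f, Jak1, Nppb, Tubb3, Ddx3y and Xist were named after their values were seen. Deviations of same-numbered pools from their group means correlated across genes at 0.34, 0.22 and 0.13. Among differently numbered pools, control pool 3 with stress pool 2 gave 0.12, and the others ran from -0.30 to -0.07. The third pair was thus barely set apart, and deviations from a group mean are not independent of one another. These values do not establish a pairing. The main fit left pools unpaired, and the numbers were used only as a block in an alternative and for the ratios. All pairs of libraries differed by more than counting noise (chi-square per degree of freedom 10.9 to 37.0 over 15 pairs).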

Additional observations from a re-analysis of the deposited data

How the results depend on the processing

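Over 13 alternatives, 0 receptor genes were called except with DESeq2, which called 1, Il4ra (adjusted p = 0.0125). The pathway lists had 0 called genes in all 13. With the replicate number as a block, 0 receptor genes and 22 of all genes were called, and no other gene call given here changed. The block was also used for the ratios (exact sign-flip p of 0.25 or more). With 3 pairs that test cannot go below 0.25, so it could not call any ratio. The block on ratios and the marker sums without Jak1 or Nts were chosen after seeing the data. Of all genes, 26 were called, 49 without the filter, 330 with DESeq2, 42 with the GC and length correction, and 2 to 14 with 1 pool left out. Directions held in all 13 for 6 of the 10 receptor genes (Il4ra, Il13ra1, Crlf2, Il6st, Il17ra and Il2rg). Values near 0 changed sign: Il31ra (-0.13 to 0.10), Osmr (-0.15 to 0.0088), Il1r1 (-0.050 to 0.095) and Il1rl1 (-0.18 to 0.31) with 1 pool left out, Il1r1 (-0.012) with the GC and length correction, and Il1rl1 (-0.083) with quality weights. The log2 differences of ratios ranged from -0.062 to 0.020 for Il4ra to Il13ra1, -0.12 to 0.17 for Il1r1 to Il1rap and -0.22 to 0.29 for Il1rl1 to Il1rap. The cause was not tested. With 3 pools a group, an exact permutation test cannot go below 0.10, and counting error limits Il2rg and Il1rl1. DESeq2 gave no adjusted p for these 2.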

Other observations

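Several of these receptor genes lie beside one another in the RefSeq gene order. Il31ra is the next gene to Il6st, but its profile over the pools followed Osmr, which lies elsewhere beside Lifr, and its level per kilobase was lower than that of Il6st in every pool. Il1r1 and Il1rl1 lie in a run with Il1r2, Il1rl2, Il18r1 and Il18rap. Il18rap, named after its values were seen, stood at 0.908, 1.08 and 1.40 CPM in control and at 0.646, 1.49 and 1.94 CPM in stress pools, with stress pools 1 and 3 lowest and highest as for Il1rl1 (log2 fold change 0.25 ± 0.38 SE, edgeR adjusted p = 0.860). Il21r, next to Il4ra and also named after its values were seen, stood at 0.822 ± 0.143 and 0.910 ± 0.252 CPM (n = 3 pools each), with a log2 fold change of 0.13 ± 0.25 SE against -0.23 ± 0.05 SE for Il4ra. The difference between these neighbours was not tested.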
